A study of Mus musculus with 27 samples.

Results

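The 37 genes described here are the Wnt ligands, Frizzled receptors, secreted Frizzled-related proteins (Sfrp) and Dickkopf antagonists (Dkk) in RNA-Seq counts from mouse embryos. They were taken by name, as every gene whose symbol starts with Wnt, Fzd, Sfrp or Dkk followed directly by a digit, out of 24065 genes. They comprise 19 Wnt ligands, 10 Frizzled receptors, 4 Sfrp genes and 4 Dkk genes. The test covered the 15114 genes whose counts averaged 10 or more across the 6 embryos, among them 36 members, and Dkk4 fell below that mean. The study asked how DNMT3B, a de novo DNA methyltransferase, shapes methylation and transcription in the embryo. RNA was sequenced from 3 WT and 3 Dnmt3b-/- whole embryos at E8.5 on the C57BL/6J background, collected as littermates. The mutants were homozygous for a catalytically inactive allele made by crossing Dnmt3b-2lox mice with an ACTB-Cre deleter line, which recombines in all tissues, and mating heterozygotes. No other allele or treatment is given for either group. P-values measure the spread among these 6 embryos.

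Wnt proteins are secreted lipid-modified signals that bind Frizzled receptors at the cell surface. With the co-receptors Lrp5 and Lrp6 they stabilise beta-catenin, which enters the nucleus with TCF/LEF factors, while other Wnt-Frizzled pairs act through planar cell polarity and cell movement. Sfrp proteins bind Wnts outside the cell, and Dkk1, Dkk2 and Dkk4 act on the Lrp co-receptors. At the stage of somite formation and heart looping this signalling is known for patterning the tail bud, the midbrain, the neural crest and the heart.

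The libraries held 41489332 to 58470286 counts in genes. A count of 3, the limit used for absence, corresponds to 2.38 to 3.5 normalised counts (scaled by TMM to the mean library) depending on the embryo, and such limits cover counting error only. WT embryo 2 stood apart from its group. Its markers of yolk sac endoderm summed to 1137 FPKM (fragments per length of exon and library size, computed from the counts), while WT embryos 1 and 3 had 381 and 177 and the mutants 111 to 413. Its primitive erythroid markers summed to 397 FPKM, below the 1515 and 2242 of WT embryos 1 and 3 and the 503 to 1437 of the mutants. Its tail bud markers summed to 120 FPKM, above the 69.9 and 59.9 of those embryos and the 50.8 to 93.5 of the mutants. Of the 6 trophoblast and decidua markers, Prl3d1, Tpbpa and Prl8a2 were at or under the limit, and all 6 together reached at most 2.99 FPKM in any embryo. The neural markers, 64.6 to 86.8 FPKM, and the heart markers, 210 to 400 FPKM, were present in all 6 embryos. Dnmt3b itself had 7287, 14003 and 6301 normalised counts in WT and 4076, 4557 and 4756 in the mutants (log2 fold change -1.04, SE 0.27, edgeR adjusted p = 0.0169). That count covers all exons, including those that were not deleted, so it checks the genotype only in part, and the value without WT embryo 2 was -0.61.

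The promoters of the members called more than 2-fold lower, and of Fzd7, the most abundant receptor and one of the members called higher, are shown so that the CpG content at these starts can be seen. Each is the 250 bases before the start site in RefSeq on GRCm38.p6 (mm10), 5′ to 3′ on the strand of the gene, with each CpG in capitals. Wnt3a (chr11:59290752-59291001, minus strand) held 41 CpG, Wnt9a (chr11:59306680-59306929, plus strand) 48, Wnt11 (chr7:98834862-98835111, plus strand) 37, Fzd9 (chr5:135251048-135251297, minus strand) 42 and Fzd7 (chr1:59481897-59482146, plus strand) 17. A second start of Wnt11 (chr7:98838595-98838844), not printed, held 16 CpG.
Wnt3a: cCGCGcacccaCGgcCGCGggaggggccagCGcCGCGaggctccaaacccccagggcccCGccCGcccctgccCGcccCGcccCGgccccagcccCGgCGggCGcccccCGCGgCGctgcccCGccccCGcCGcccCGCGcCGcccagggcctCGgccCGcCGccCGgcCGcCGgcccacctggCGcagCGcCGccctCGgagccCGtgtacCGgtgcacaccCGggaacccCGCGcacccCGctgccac
Wnt9a: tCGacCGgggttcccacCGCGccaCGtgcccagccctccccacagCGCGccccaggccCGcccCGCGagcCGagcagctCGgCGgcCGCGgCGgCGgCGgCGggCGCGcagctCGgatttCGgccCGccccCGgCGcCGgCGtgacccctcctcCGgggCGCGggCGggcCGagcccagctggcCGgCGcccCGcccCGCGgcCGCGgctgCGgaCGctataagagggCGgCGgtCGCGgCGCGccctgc
Wnt11: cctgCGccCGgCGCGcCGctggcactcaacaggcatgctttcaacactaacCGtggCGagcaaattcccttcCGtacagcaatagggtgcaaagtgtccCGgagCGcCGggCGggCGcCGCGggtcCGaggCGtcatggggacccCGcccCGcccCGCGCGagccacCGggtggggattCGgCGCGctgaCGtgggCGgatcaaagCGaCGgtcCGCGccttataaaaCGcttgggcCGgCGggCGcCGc
Fzd9: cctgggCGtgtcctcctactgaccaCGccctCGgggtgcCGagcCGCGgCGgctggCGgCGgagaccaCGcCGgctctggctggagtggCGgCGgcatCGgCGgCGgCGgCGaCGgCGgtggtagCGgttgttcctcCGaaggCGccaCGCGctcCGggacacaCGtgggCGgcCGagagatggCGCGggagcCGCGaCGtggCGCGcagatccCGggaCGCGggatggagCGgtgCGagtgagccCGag
Fzd7: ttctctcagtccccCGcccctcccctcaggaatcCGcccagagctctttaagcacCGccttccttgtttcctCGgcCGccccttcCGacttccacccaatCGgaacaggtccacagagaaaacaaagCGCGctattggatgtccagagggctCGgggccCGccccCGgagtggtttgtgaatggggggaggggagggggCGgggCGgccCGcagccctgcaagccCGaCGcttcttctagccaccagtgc

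A start was matched for 25 of the 37 members, with 28 entries. These had a median of 22 CpG in 250 bases, from 4 to 48, against a median of 6 over all 32851 entries of the same length, and a median GC content of 69.4% against 52.4%. The letters CTTTGA, the core to which TCF/LEF factors can bind, were searched on both strands. They were present in 4 of the 28 entries (14.3%), those of Dkk1, Fzd1, Wnt11 and Wnt5b, and in 13.8% of all entries. A match is a description of letters in this window and not a binding site. Methylation at these promoters was not analysed here.

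Levels in WT embryos are compared between genes per length, in FPKM. Among ligands Wnt5a, the signal of planar cell polarity and axis elongation, was the most abundant at 10.54 ± 0.104 FPKM (SD, n = 3). It was followed by Wnt2, a ligand of heart, lung and placental vessel development, at 9.62 ± 2.14 and by Wnt5b, a close relative of Wnt5a, at 9.02 ± 0.707 FPKM. The range of Wnt2 (8.33 to 12.1 FPKM) overlapped those of Wnt5a and Wnt5b, and that of Wnt5b (8.47 to 9.82 FPKM) reached neither Wnt5a above it nor Wnt6 (5.44 to 6.78 FPKM) below it. Wnt3a, the tail bud signal that maintains paraxial mesoderm, stood at 4.68 ± 1.08 FPKM, in a range that overlapped those of Wnt6 and of Wnt8a. From Wnt11 (1.34 FPKM) through Wnt4, Wnt7b, Wnt8b, Wnt7a and Wnt2b to Wnt1 (0.912 FPKM), every ligand overlapped the next. The ligands below these were Wnt3 at 0.580 FPKM and then Wnt9b, Wnt10a, Wnt9a, Wnt16 and Wnt10b, which ran from 0.355 down to 0.114 FPKM. A total of 11 of the 19 ligands were at 1 FPKM or above.

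All 10 Frizzled receptors exceeded 1 FPKM. Fzd7, a receptor of both Wnt branches, led at 29.3 ± 4.53 FPKM, and its range in WT embryos did not overlap that of Fzd3 (21.7 ± 3.45 FPKM), a planar polarity receptor of axon tracts and neural tube closure. Fzd3 overlapped Fzd2 (19.3 ± 2.41 FPKM), and Fzd10 (15.1 ± 0.413 FPKM) overlapped neither Fzd2 nor Fzd1. Fzd1, Fzd4, Fzd6, Fzd8, Fzd5 and Fzd9 ran from 6.91 to 2.53 FPKM. Sfrp1 was the most abundant of all 37 members at 38.8 ± 3.78 FPKM, ahead of Sfrp2 at 22.8 ± 7.88 and Sfrp5 at 9.41 ± 1.92 FPKM, with no overlap between neighbours, while Sfrp4 stood at 0.253 FPKM. Dkk1, the antagonist needed for head formation, stood at 6.01 ± 1.93 FPKM, Dkk3 at 3.17 ± 0.194 and Dkk2 at 0.862 ± 0.466 FPKM, again without overlap. Dkk4 had 0 to 3 raw counts in every embryo of either genotype, which is at or under the limit, and no fold change is given for it.

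**Figure D1:**
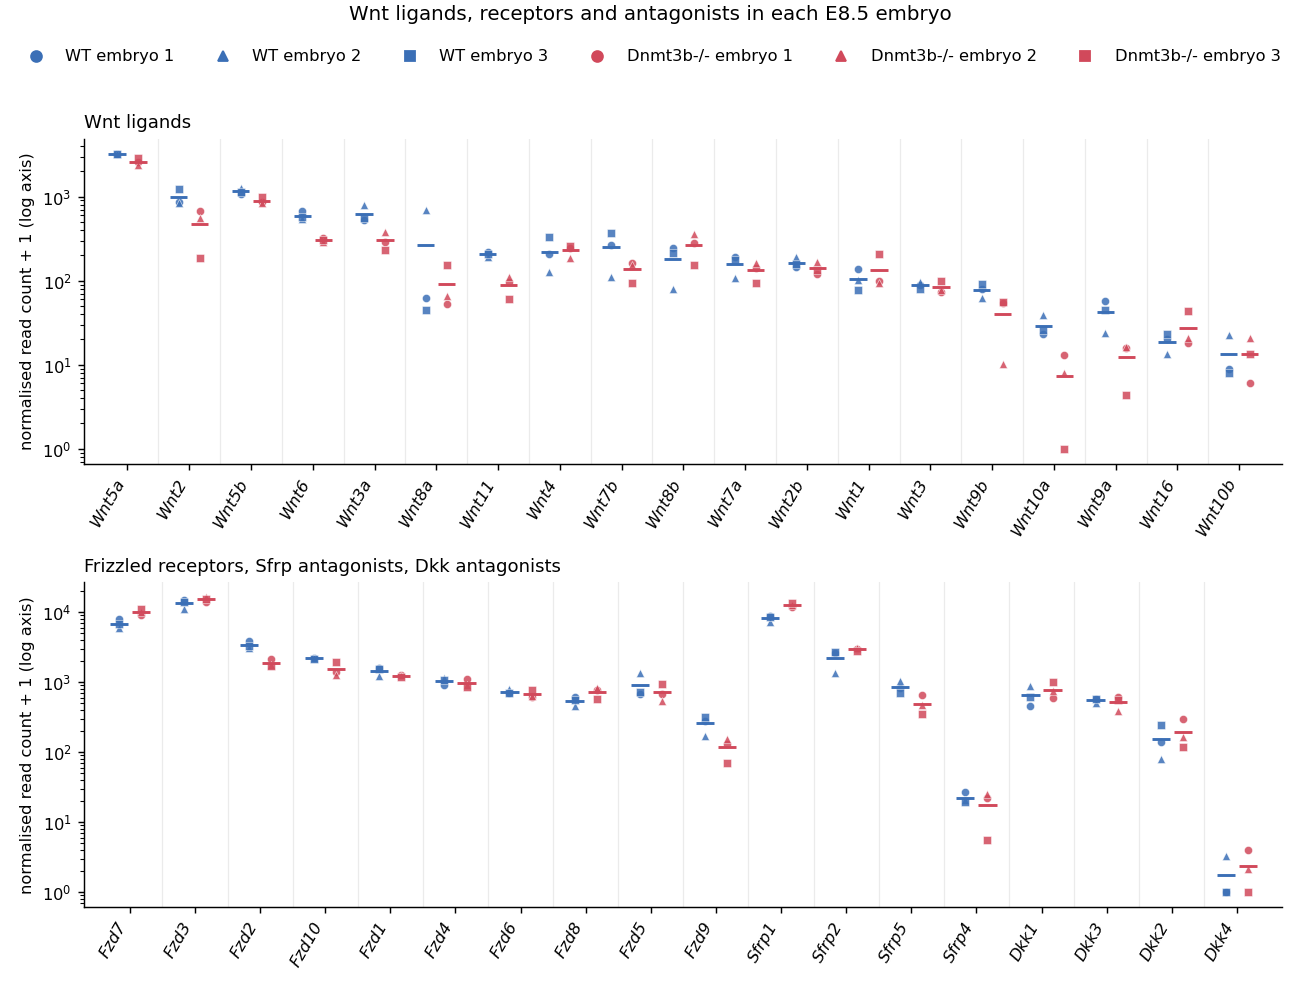
Normalised read count plus 1 (log axis) of each of the 37 members in each E8.5 embryo, blue for WT and red for Dnmt3b-/-, with the embryo number as the marker shape and a bar at the mean of 3 embryos. Members are ordered by class and level, and WT embryo 2 (triangle) stands far above the others for Wnt8a, at 689 counts.

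The comparison of genotypes asked which signals and receptors differed when DNMT3B activity was lost. Of the 36 tested members 10 were lower and 2 higher in Dnmt3b-/- embryos (edgeR quasi-likelihood test, Benjamini-Hochberg adjusted p below 0.05), beside 18.1% of all tested genes called lower and 17.6% called higher. The lower members were the ligands Wnt3a, Wnt5a, Wnt5b, Wnt6, Wnt9a and Wnt11, the receptors Fzd2, Fzd9 and Fzd10, and the antagonist Sfrp5, and the higher ones were Fzd7 and Sfrp1. With a fold change above 2 in addition, 4 members were lower (Wnt3a, Wnt9a, Wnt11 and Fzd9), beside 3.78% of all tested genes, and none was higher, beside 2.12%. The largest increase of any tested member in this fit was 1.55-fold, in Sfrp1, so none was above 2-fold at any p, and DESeq2 also called none. With the correction for GC content and length given below, Wnt1 was above 2-fold (log2 fold change 1.04) but not called (edgeR adjusted p = 0.111). The median log2 fold change was -0.25 over the members and -0.03 over all tested genes. All 3 mutant embryos lay below all 3 WT embryos for 13 members, beside 26.5% of all tested genes, and above them for 3 members, beside 25.3%. In RNA from whole embryos, fewer cells of a type and less RNA per cell cannot be told apart.

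The direction of these counts moved with the base composition of the genes. The members had a median exonic GC content of 55.0% against 50.3% over all tested genes, and across all tested genes those rich in GC were lower in the mutants. In 5 equal groups of genes by rising GC content the median log2 fold change went from 0.32 through 0.13, -0.04 and -0.27 to -0.52. In the group richest in GC (56.1 to 73.0%), which held 15 members, 41.7% of all genes were called lower. Of those 15 members 8 were lower and none higher, with a median log2 fold change of -0.87. When the trend on GC content and exon length was removed from each library, 2 members were lower (Fzd2 and Wnt5a), beside 10.6% of all tested genes, and 3 were higher (Fzd7, Fzd8 and Sfrp1), beside 12.4%, and the median of the members was -0.11. What part of the difference in the GC-rich members follows the libraries and what part follows the genotype cannot be told apart in this design, so the corrected value is given beside that of each member called.

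**Figure D2:**
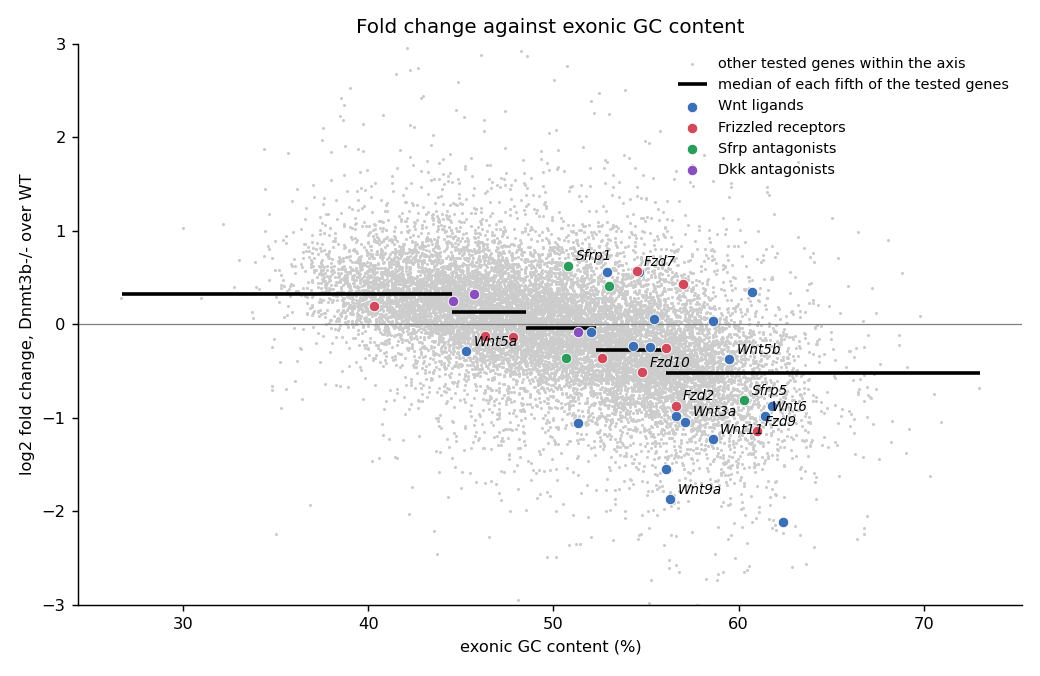
log2 fold change (Dnmt3b-/- over WT) against exonic GC content in percent, with tested genes in grey, members coloured by class, called members named, and a black bar at the median of each of 5 equal groups of genes by GC content. The medians fall from 0.32 to -0.52, and 8 of the 10 members called lower without correction lie in the group richest in GC, outside of which lie Wnt5a and Fzd10 and the higher Fzd7 and Sfrp1.

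Among ligands 6 of 19 were lower and none higher, beside 18.1% and 17.6% of all tested genes. DESeq2 gave the same counts, beside 19.9% and 20.3%, and none was higher at an unadjusted p below 0.05 either. With the GC and length correction 1 ligand, Wnt5a, was lower, beside 10.6% of all tested genes. Wnt3a had 520, 785 and 560 normalised counts in WT and 291, 382 and 232 in Dnmt3b-/-. The groups did not overlap, and the WT embryo rich in tail bud markers was the highest. Mutant embryo 3, the mutant with the highest tail bud markers (93.5 FPKM), was the lowest of all 6. The part of these markers in the Wnt3a values was not tested. The log2 fold change of Wnt3a was -1.04 (SE 0.23, edgeR adjusted p = 0.00907), and -0.59 (adjusted p = 0.0897) with the correction. It was called lower in all 6 leave-one-out fits, each without 1 embryo, from -1.25 to -0.84.

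Wnt9a lies 16.2 kb from Wnt3a on chromosome 11 (mm10, chr11:59306930-59333552, plus strand), start to start with it on the opposite strand. It was weakly expressed, with 56.3, 23.0 and 44.2 normalised counts in WT and 15.0, 15.2 and 3.40 in the mutants. All mutants were below all WT embryos, although one of them held only 3 raw counts. The log2 fold change was -1.87 (SE 0.62, edgeR adjusted p = 0.0462) and -1.49 (adjusted p = 0.108) with the correction. The call was kept in 1 of the 6 leave-one-out fits, that without WT embryo 2 (-2.15, edgeR adjusted p = 0.0296), and the adjusted p of the rest reached 0.166.

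Wnt11, a ligand of cell movement in gastrulation and of the heart, had 219, 189 and 208 normalised counts in WT and 94.2, 110 and 58.9 in the mutants. Every WT embryo was higher than every mutant and the WT values lay close together. The log2 fold change was -1.23 (SE 0.27, edgeR adjusted p = 0.00911), called in all 6 leave-one-out fits, and -0.70 (adjusted p = 0.0760) with the correction. Wnt6, a ligand of surface ectoderm, had 675, 542 and 565 counts in WT and 318, 288 and 300 in the mutants, without overlap. It fell by 0.98 on the log2 scale (SE 0.14, edgeR adjusted p = 0.00184), in all 6 leave-one-out fits, and its corrected value was -0.31 (adjusted p = 0.15).

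Wnt5a had 3184, 3182 and 3237 normalised counts in WT and 2589, 2352 and 2894 in the mutants. The 3 WT embryos differed by less than the distance to any mutant. Its log2 fold change was -0.29 (SE 0.09, edgeR adjusted p = 0.0321), and with 45.3% exonic GC, the lowest of the ligands, it was -0.46 (adjusted p = 0.00852) with the correction. It was called in 2 of the 6 leave-one-out fits, and the adjusted p ranged from 0.0137 to 0.125. Wnt5b had 1083, 1255 and 1120 counts in WT and 865, 828 and 978 in the mutants, also without overlap, at -0.37 (SE 0.11, edgeR adjusted p = 0.0341), but its direction turned to 0.22 (adjusted p = 0.319) with the correction. It was called in 1 of the 6 leave-one-out fits, with adjusted p up to 0.118. Exons of a gene on the opposite strand cover 13.8% of the exons of Wnt5b, and the strand setting of the counting is not given in the sources used here.

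Wnt2 had 859, 849 and 1231 normalised counts in WT and 673, 557 and 184 in the mutants. The groups did not overlap and mutant embryo 3 was far below the others. The difference was not called (log2 fold change -1.05, SE 0.40, edgeR adjusted p = 0.0733), nor was it with the correction (-1.02, adjusted p = 0.0854). It passed without mutant embryo 3 (-0.66, adjusted p = 0.0498) and without mutant embryo 1 (-1.39, adjusted p = 0.0489). Wnt10a, at 22.2, 37.9 and 24.8 normalised counts in WT and 12, 7 and 0 in the mutants, was not called (-2.11, SE 0.84, edgeR adjusted p = 0.0846), nor was Wnt9b at 79.2, 62.0 and 90.3 against 53.1, 9.34 and 54.4 (adjusted p = 0.211), although neither pair of groups overlapped. These values, with those of Wnt8a below, were singled out after they were seen.

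Wnt8a, a ligand of the primitive streak and posterior embryo, was the member set most by 1 embryo. It had 61.0, 689 and 43.4 normalised counts in WT and 52.1, 64.2 and 153 in the mutants. Its log2 fold change of -1.55 (edgeR adjusted p = 0.255) became 0.78 without WT embryo 2, the embryo with the highest tail bud markers. The highest mutant for Wnt8a, embryo 3, was also the mutant with the highest tail bud markers (93.5 FPKM against 50.8 and 60.9), and the part of these markers in the Wnt8a values was not tested. Of the tail bud markers Cdx1 and Cdx4 are also in the list of beta-catenin target genes below, so their sum does not measure cell content apart from Wnt signalling. Cdx1 had 494, 1973 and 381 normalised counts in WT. The remaining 9 ligands, Wnt1, Wnt2b, Wnt3, Wnt4, Wnt7a, Wnt7b, Wnt8b, Wnt10b and Wnt16, overlapped between the genotypes and had log2 fold changes from -0.87 (Wnt7b, a ligand of the chorion and lung) to 0.56 (Wnt8b, a ligand of the forebrain, and Wnt16). Wnt7b passed the threshold only without WT embryo 2 (-1.23, edgeR adjusted p = 0.0114). With the correction these 9 ligands ran from -0.18 (Wnt7b) to 1.04 (Wnt1), and none was called.

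Several other ligands lie in neighbouring pairs on the mouse genome. Wnt6 lies 6.70 kb from Wnt10a on chromosome 1, and both were lower in every mutant than in any WT embryo, with the call for Wnt6 alone. Wnt1 lies 11.7 kb from Wnt10b on chromosome 15, and these had log2 fold changes of 0.35 and 0.04 with overlapping groups. Wnt3 lies 24.4 kb from Wnt9b on chromosome 11, at -0.08 and -0.98, neither called.

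Among receptors 3 of 10 were lower and 1 higher, beside 18.1% and 17.6% of all tested genes. With the correction 1 was lower and 2 higher, beside 10.6% and 12.4%. Fzd7 had 7902, 5819 and 6647 normalised counts in WT and 8923, 10132 and 11158 in the mutants. All mutants exceeded all WT embryos. Its log2 fold change was 0.57 (SE 0.13, edgeR adjusted p = 0.00913), and 0.88 (adjusted p = 0.00479) with the correction. It was called higher in all 14 alternatives run, the 6 leave-one-out fits included.

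Fzd2 moved the other way, with 3837, 3012 and 3277 normalised counts in WT and 2111, 1730 and 1685 in the mutants, again without overlap. It fell by 0.87 on the log2 scale (SE 0.12, edgeR adjusted p = 0.00156) and by 0.45 with the correction (adjusted p = 0.0152), and was called lower in all 14 alternatives. Fzd9 had 280, 171 and 321 counts in WT and 131, 151 and 68.0 in the mutants, where WT embryo 2 came close to mutant embryo 2. Its log2 fold change was -1.14 (SE 0.35, edgeR adjusted p = 0.0337), and with 61.0% exonic GC its corrected value was -0.52 (adjusted p = 0.273). It was called in 2 of the 6 leave-one-out fits, those without WT embryo 2 and without mutant embryo 2.

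Fzd3 did not pass the test, at 14925, 10917 and 14096 normalised counts in WT and 14008, 16226 and 15521 in the mutants. The groups overlapped, and its log2 fold change of 0.20 (SE 0.12, edgeR adjusted p = 0.238) turned to -0.07 with the correction. Fzd10, a receptor of the dorsal neural tube, went from 2226, 2200 and 2112 counts in WT to 1380, 1270 and 1935 in the mutants (log2 fold change -0.51, edgeR adjusted p = 0.0316). It was called in 2 of the 6 leave-one-out fits and not with the correction (-0.19, adjusted p = 0.509). Fzd8, at 604, 455 and 547 counts in WT and 780, 808 and 575 in the mutants, was the reverse case, with an edgeR adjusted p of 0.0846 and a corrected log2 fold change of 0.88 (adjusted p = 0.00504). DESeq2 also called it higher (log2 fold change 0.45, DESeq2 adjusted p = 0.0425). Fzd1, Fzd4, Fzd5 and Fzd6 had log2 fold changes from -0.36 to -0.12 and overlapping groups.

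**Figure D3:**
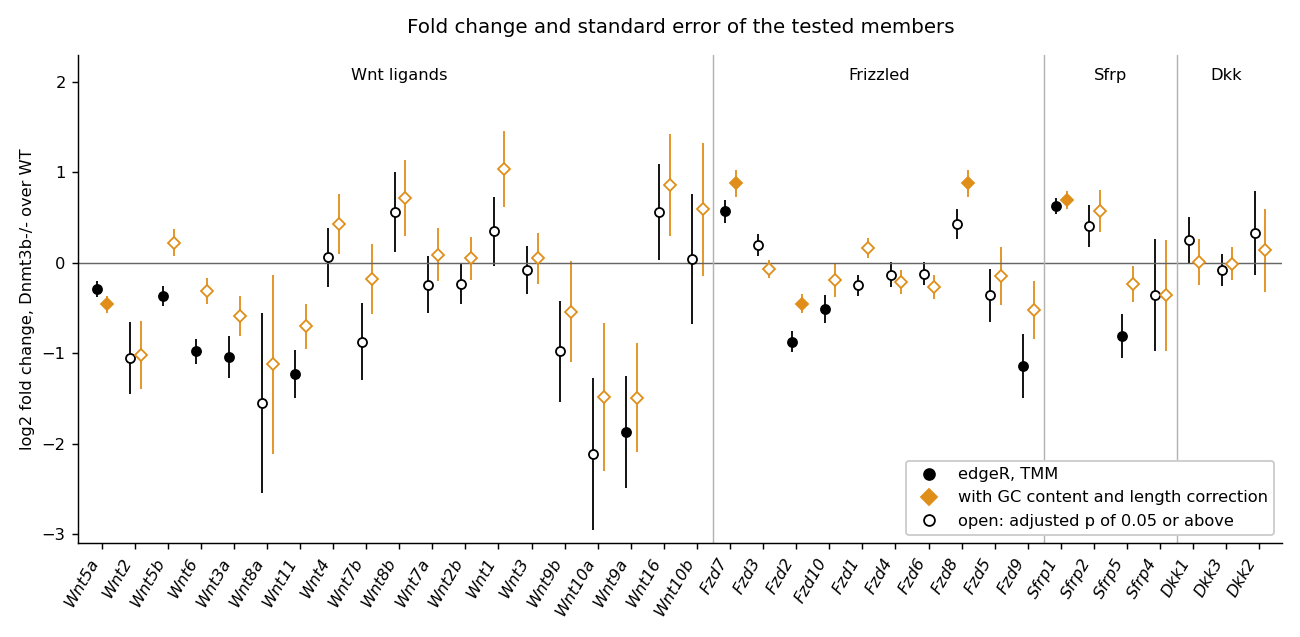
log2 fold change (Dnmt3b-/- over WT) with its standard error for the 36 tested members by class, from the edgeR fit (circles) and with the GC content and length correction (diamonds), filled where the adjusted p is below 0.05. With the correction 10 of the 19 ligands have negative values in place of 14. It turns Wnt5b, Wnt2b, Wnt3, Wnt7a, Fzd1 and Fzd3 to the other sign, and leaves Fzd7 and Sfrp1 higher and Fzd2 and Wnt5a lower.

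The antagonists split by member. Sfrp1 had 8736, 7267 and 8537 normalised counts in WT and 11830, 12652 and 13467 in the mutants. The gap between the groups was wider than the spread within either. Its log2 fold change was 0.63 (SE 0.09, edgeR adjusted p = 0.00176) and 0.69 (adjusted p = 0.00312) with the correction, and it was called higher in all 14 alternatives. Sfrp2 had 2580, 1326 and 2696 counts in WT and 2913, 3107 and 2751 in the mutants. All mutants were higher, the lowest of them only just above the highest WT embryo, and the difference was not called (log2 fold change 0.41, SE 0.23, edgeR adjusted p = 0.206, with 0.57 after the correction and 0.15 without WT embryo 2).

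Sfrp5, which is known from the foregut endoderm and the early heart region, had 834, 1048 and 700 normalised counts in WT and 652, 462 and 351 in the mutants. The groups came close without overlapping. It fell by 0.81 on the log2 scale (SE 0.24, edgeR adjusted p = 0.0291), and its exonic GC content of 60.3% went with a corrected value of -0.23 (adjusted p = 0.431). It was called in 2 of the 6 leave-one-out fits, with adjusted p from 0.0111 to 0.100. Sfrp4 was too low to separate the groups (log2 fold change -0.36, SE 0.62).

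No Dkk gene passed the test in either direction, by edgeR or by DESeq2, and none had an unadjusted p below 0.05. Dkk1 had 457, 872 and 620 normalised counts in WT and 597, 733 and 984 in the mutants (log2 fold change 0.25, SE 0.26, edgeR adjusted p = 0.484). Dkk3 had 564, 509 and 569 counts in WT and 615, 387 and 549 in the mutants (-0.08, SE 0.18, edgeR adjusted p = 0.755). Dkk2 ranged from 79.2 to 243 counts in WT and from 117 to 299 in the mutants (0.33, SE 0.46, edgeR adjusted p = 0.616). All 3 overlapped between the genotypes, and their corrected log2 fold changes were 0.01, -0.01 and 0.14.

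Summed over each class, the ligand total was lower in the mutants and the Sfrp total higher. The 19 ligands summed to 49.3, 56.8 and 52.7 FPKM in WT and 36.1, 35.0 and 33.7 in the mutants, without overlap, 0.66 of the WT mean. WT embryo 2 owed 9.41 FPKM of its total to Wnt8a. The 4 Sfrp genes summed to 77.7, 60 and 76.4 FPKM in WT and 93.8, 97.7 and 96.4 in the mutants, also without overlap, at a ratio of 1.34. The Frizzled total overlapped between the genotypes, at 111 ± 10.2 FPKM in WT and 112 ± 5.75 in the mutants (SD, n = 3), and so did the Dkk total. Within the Frizzled class the share of Fzd7 was 28.3, 25.1 and 25.9% in WT and 36.2, 39.3 and 40.9% in the mutants. The share of Sfrp1 in its class went from 53.1 to 57.6% in WT to 59.9 to 66.4% in the mutants. These totals are given without the correction and carry no test.

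**Figure D4:**
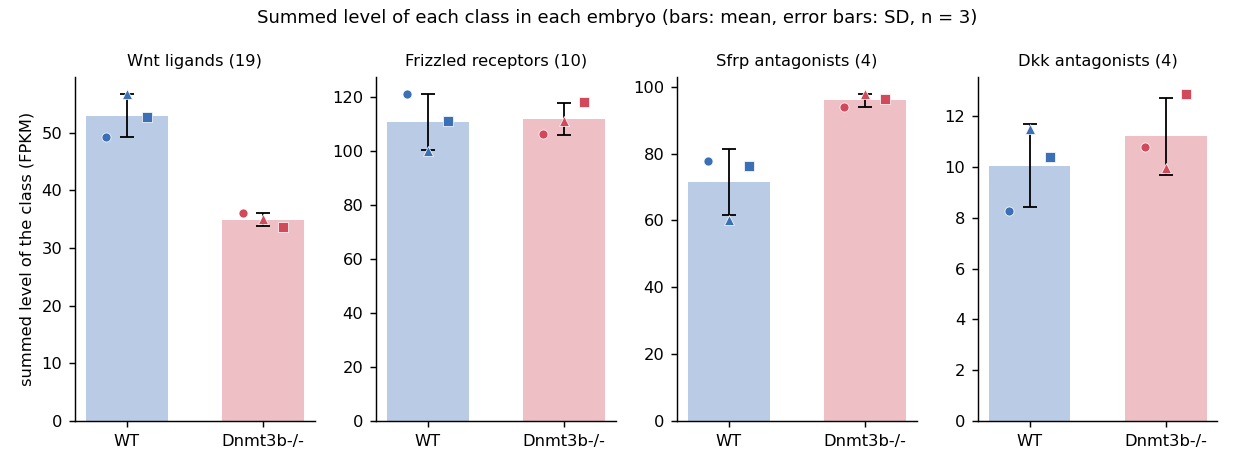
Summed level (FPKM, linear axis from 0) of each class in each embryo, with bars at the mean and error bars of 1 SD over 3 embryos per genotype, without the GC correction. The 3 mutants lie between 33.7 and 36.1 FPKM for the ligands, below all WT embryos, and between 93.8 and 97.7 FPKM for the Sfrp genes, above all WT embryos, while the Frizzled and Dkk totals overlap.

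Of 73 other genes of the pathway, listed by role from textbook knowledge, 72 were tested, and 15 were lower and 9 higher, beside 18.1% and 17.6% of all tested genes, with a median log2 fold change of 0.00. With the correction 6 were lower and 10 higher, beside 10.6% and 12.4%. With a fold change above 2 in addition, 3 were lower, beside 3.78% of all tested genes, namely Apc2 (-1.67), a relative of the scaffold protein Apc, and the planar polarity cadherins Celsr2 (-1.27) and Celsr3 (-1.39). Pygo1, a nuclear partner of beta-catenin, was the only one higher at that fold (1.13, edgeR adjusted p = 0.00331), beside 2.12%. Apc2, Celsr2 and Pygo1 were also called with the correction (-0.91, -0.57 and 0.95), and Celsr3 was not (-0.69). The receptors outside the Frizzled class were split. Ror2, the Wnt5a receptor, went from 3493 ± 344 to 1902 ± 163 normalised counts (SD, n = 3; log2 fold change -0.88, edgeR adjusted p = 0.000859) and Ptk7 fell by 0.69 on the log2 scale, while Lrp6 was higher by 0.38 (edgeR adjusted p = 0.00335, and 0.00923 with the correction). The values for Ror2 and Ptk7 were -0.31 and -0.13 with the correction, neither called.

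The counts by list below stand beside 18.1% of all tested genes called lower and 17.6% higher, and 10.6% and 12.4% with the correction. Of the 5 genes for Wnt secretion and release none was called in either direction, by edgeR, by DESeq2 or at an unadjusted p below 0.05. Wls, the carrier of Wnt proteins, was at 10126 ± 1107 counts in WT and 9876 ± 869 in the mutants (SD, n = 3). With the correction Wls was called lower (-0.43, edgeR adjusted p = 0.0149). Among 8 tested R-spondins, their receptors and E3 ligases, Rspo3, a secreted amplifier of Wnt signals, was called higher (0.60, edgeR adjusted p = 0.00823). With the correction its call was lost (0.33, adjusted p = 0.0934), and Rspo1 was called higher in its place (1.22, edgeR adjusted p = 0.00917). Of 11 other antagonists Kremen1 (-0.60), a Dkk receptor, and Shisa2 (-0.63), which retains Frizzled in the endoplasmic reticulum, were lower. Shisa2 remained so with the correction (-0.36, edgeR adjusted p = 0.0320) and Kremen1 did not (-0.22). In the destruction complex and Dishevelled list 5 of 12 were lower and 4 higher, with Dvl2 (-0.69), Axin1 (-0.52) and Dvl1 (-0.72) at the smallest adjusted p. None of those 3 was called with the correction, by which 2 of the list were lower and 2 higher. Gsk3a was called higher in both fits (0.50, and 1.11 with the correction, edgeR adjusted p = 0.00166). Of 11 nuclear effectors 3 were lower, led by Pygo2 (-0.94), which stayed lower with the correction (-0.45), and 2 higher. In planar cell polarity 3 of 8 were lower, all of them Celsr genes. With the correction Celsr2 alone was lower (-0.57, edgeR adjusted p = 0.0238), with Celsr1 at -0.13 and Celsr3 at -0.69.

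Of 19 target genes of beta-catenin none was called lower by edgeR or DESeq2, beside 18.1% and 19.9% of all tested genes (1 was at an unadjusted p below 0.05). By edgeR 1, Ccnd1, was higher (log2 fold change 0.33, edgeR adjusted p = 0.0433), beside 17.6%. DESeq2 called 4 higher, beside 20.3%, and 4 were higher with the correction, beside 12.4%. The median of the list was -0.01, and 0.34 with the correction. The lists overlap, since Axin2, Lef1, Tcf7, Lgr5, Notum, Apcdd1, Znrf3 and Rnf43 are also counted in the lists above. Axin2, the general feedback target, was at 3352 ± 484 counts in WT and 3225 ± 475 in the mutants (SD, n = 3; log2 fold change -0.06, SE 0.13, edgeR adjusted p = 0.774). Wls and Axin2 were chosen for mention with their values in view.

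Markers of cell types that the whole embryo holds are given beside the members. Of all tested genes 18.1% were called lower and 17.6% higher by edgeR, and 19.9% and 20.3% by DESeq2. With the correction the shares were 10.6% and 12.4%. The tail bud list, 5 genes with a median log2 fold change of -0.35, had none called by edgeR, 1 by DESeq2 and 1 at an unadjusted p below 0.05, and its levels overlapped (59.9 to 120 FPKM in WT and 50.8 to 93.5 in the mutants). Its median exonic GC content was 59.9%, and with the correction its median log2 fold change was -0.09 and none was called. The yolk sac endoderm list, 8 genes, had negative values in all 8, none called by edgeR, 1 by DESeq2 and 2 at an unadjusted p below 0.05, with a median of -1.06 and overlapping levels (177 to 1137 FPKM in WT and 111 to 413 in the mutants). Its median was -0.99 with the correction, and none was called. Of 6 neural markers 1, Sox2, was lower (-0.48, edgeR adjusted p = 0.00496) and 2 were higher, among them Pax6 (0.85, edgeR adjusted p = 0.0288). Neither named gene was called with the correction (-0.37 and 0.79). With it 2 other neural markers were called higher, beside 12.4% of all tested genes, and none lower, beside 10.6%. Of these Sox1 was called higher in both fits (0.54, edgeR adjusted p = 0.0247, and 1.02, adjusted p = 0.00868, with the correction). Of 5 heart markers 1 was lower and 1 higher, of 6 paraxial mesoderm markers 1 was higher, and of 4 gut and notochord markers 1 was higher. With the correction none of the heart markers was lower and 1 was higher. Nkx2-5, the heart marker called lower, went from -0.79 to 0.02. The paraxial mesoderm list and the gut and notochord list each had 1 higher with the correction. The neural crest list had none called by edgeR, by DESeq2 or at an unadjusted p below 0.05, and summed to 17.7 to 32.2 FPKM in WT and 27.5 to 29.6 in the mutants. The part of these markers in the differences between members was not tested. Without WT embryo 2, 10 members were lower and 2 higher, beside 17.6% and 17% of all tested genes, with Fzd1 and Wnt7b in the place of Sfrp5 and Wnt5b.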

How the data were processed

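Total RNA of 6 E8.5 embryos, 3 WT and 3 Dnmt3b-/-, had been depleted of ribosomal RNA, made into stranded libraries and sequenced in pairs. The authors aligned reads to mm10 with TopHat2 2.0.12 and deposited raw counts in RefSeq exons from HTSeq 0.6.0, which are the values used here. The deposited table also holds 6 columns of normalised counts and the authors' own comparison (log2 fold changes and adjusted p-values), and neither was used. The methylation libraries of the series were not analysed here.

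Counts were scaled by TMM and fitted in edgeR 4.0.16 (R 4.3.3) by quasi-likelihood, with genotype as the only term, for the 15114 genes averaging 10 counts or more. P-values were adjusted over all of these by Benjamini-Hochberg. The call threshold was 0.05, and calls with over 2-fold change were counted separately. FPKM values were computed from the TMM-scaled counts and the union of curated RefSeq exons on GRCm38.p6, where 22604 genes matched by symbol and 1247 by an older symbol (99.1%). The GC correction removed from each library natural splines (5 degrees of freedom each) on the GC content and log2 length of the exons, and genes without a match took the median trend. The scripts were tested on simulated data. With 3 embryos a group, an exact permutation test could not reach 0.05, and none is given.

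Members were taken by their symbols, but these gene families and the other lists were chosen with earlier results of these data known. Values are given for members called above 2-fold and the 3 most abundant of each class. Counts are also given for Wnt6 and Fzd10, which were called, and for Fzd8, Wnt8a, Wnt9b and Wnt10a, which were not called in the main fit. Others are named briefly. Alternatives were no filter, a mean of 50 counts, DESeq2 size factors, total counts, DESeq2 1.42.0, the GC correction, a replicate block, and leaving out each embryo.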

Additional observations from a re-analysis of the deposited data

How the results depend on the processing

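The depth limits Dkk4 and the ligands under 50 counts. No filter, a mean of at least 50 counts, size factors, total counts and DESeq2 kept the 10 lower calls among the members tested (9 with the stricter filter, which drops Wnt9a), and DESeq2 added Fzd8 to the higher ones. In that order 14.2, 21.5, 17.4, 21.2 and 19.9% of all tested genes were called lower. Those called higher were 12.9, 20.7, 18.3, 14.2 and 20.3%. With the GC content and length correction 2 members were lower, 0 of them above 2-fold, and 6 other pathway genes were lower, beside 10.6% of all tested genes. Same-numbered embryos did not deviate together (correlations of -0.049, -0.147 and -0.013), and those of different number ranged from -0.083 to 0.135. With 3 embryos a group this cannot show whether the numbers mark pairs. With a replicate block 6 members were lower, 2 of them above 2-fold, beside 14.8% of all tested genes called lower. With the replicate block and the GC correction together 3 members were lower (0 above 2-fold), and 4 other pathway genes, beside 7.03%. Leaving out each embryo gave 4 to 10 lower members and 0 to 5 above 2-fold, 4 without WT embryo 1 and 0 above 2-fold without mutant embryo 3, beside 11.8 to 17.6% of all tested genes called lower. These shares are for the adjusted p alone. The share of all tested genes lower by more than 2-fold was taken in the main fit only (3.78%). The counts above 2-fold in the alternatives therefore cannot be set against all genes. Fzd2, Wnt3a, Wnt6, Wnt11, Fzd7 and Sfrp1 were called in all 6 of these fits. The members' median was -0.32 with total counts, which moved the median of all genes from -0.029 to -0.106. It was -0.11 with the correction, -0.06 with block and correction, and -0.29 to -0.17 leaving out each embryo. Dnmt3b was at -0.84 (adjusted p = 0.0629 by edgeR) with the correction, -0.75 with block and correction, and -1.25 to -0.61 leaving out each embryo. Directions reversed with the correction, and with block and correction, in Fzd1 (0.16 and 0.17), Fzd3 (-0.07 and -0.06), Wnt2b (0.05 and 0.04), Wnt3 (0.05 and 0.03), Wnt5b (0.22 and 0.21) and Wnt7a (0.09 and 0.10). They reversed with total counts in Wnt10b (-0.04) and Wnt4 (-0.02). Leaving out each embryo, the range crossed 0 in Dkk2 (-0.12 to 0.82), Dkk3 (-0.21 to 0.09), Fzd5 (-0.58 to 0.03), Sfrp4 (-0.73 to 0.10), Wnt1 (-0.10 to 0.59), Wnt10b (-0.47 to 0.71), Wnt3 (-0.21 to 0.02), Wnt4 (-0.21 to 0.46) and Wnt8a (-2.17 to 0.78). Apart from the construction of each alternative, the cause was not tested.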
